A study of Mus musculus with 7 samples.

Results

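The genes described are a set of 10 that belong to the glucocorticoid system or respond to glucocorticoids. They are the receptor gene Nr3c1, the steroid-activating enzyme gene Hsd11b1, and the response genes Fkbp5, Tsc22d3, Zbtb16, Sgk1, Klf9, Lcn2, Mt1 and Mt2. All 10 were found among the 20927 genes of the count table and all 10 had enough counts to be tested. The question was whether they differ between wild-type (WT) and mutant hearts and whether they move together from heart to heart.

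Left ventricular RNA was sequenced from 3 WT mice (replicates 1, 3 and 4) and from 4 mice homozygous for the titin missense variant A178D (replicates 1 to 4), with 1 library per heart. Both groups carry the strain label C57BL/6J. The variant was introduced by CRISPR-Cas9 into C57BL/6N embryonic stem cells, together with a silent change that creates a restriction site. WT and homozygous animals were littermates from a line that had first been crossed repeatedly to C57BL/6J. No hormone or drug is given in the labels, and the age and sex of these animals, the hour at which they were killed and their circulating corticosterone are not given in the sources used here.

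Glucocorticoids enter the cell and bind the receptor encoded by Nr3c1, which is held ready by Hsp90 and its co-chaperones and moves into the nucleus to switch genes on or off. Inside tissues the enzyme encoded by Hsd11b1 regenerates active corticosterone from its inert keto form. The heart expresses the receptor in myocytes and in other cells, and corticosterone in mice follows the daily cycle.

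Library totals were 51797208, 54245530 and 41102868 counts in WT replicates 1, 3 and 4, and 40623300, 52345529, 42174448 and 33080675 counts in A178D replicates 1 to 4. Values per heart are given as counts per 1000000 counts (CPM), scaled between libraries by the trimmed mean of M-values (TMM). The tissue label was checked against markers. The 8 cardiomyocyte markers summed to between 95060 and 104500 CPM per heart, with Myh6 the most abundant, whereas of the 4 atrial markers only Myl4 could be tested, at 1.85 to 4.01 CPM, and Bmp10 had 0 counts in every heart. Over all tested genes, WT replicates 3 and 4 were most like each other (r = 0.9897 of log2 CPM, across genes, which are not independent replicates), but WT replicate 1 was most like A178D replicate 3 (r = 0.9893). These values were close, and the lowest best match belonged to A178D replicate 4 (r = 0.9863, with A178D replicate 2). Several values for genes and pairs are also given without WT replicate 1, which does not mark that heart as faulty.

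Of the 10 genes, Zbtb16 fell and Lcn2 rose in A178D hearts, and the remaining 8 did not pass the test. Zbtb16 was at 43.0% of its WT level and Lcn2 at 190.0% of its WT level. The test was edgeR's quasi-likelihood test over 13894 genes, with Benjamini-Hochberg adjusted p under 0.05 as the threshold for a call. Among all tested genes 145 were called higher (1.04%) and 182 lower (1.31%), against 1 higher and 1 lower among the 10. The hearts of the 2 genotypes did not overlap in 3 of the 10 (Nr3c1, Zbtb16 and Lcn2), against 2242 of all tested genes (16.1%). An unadjusted p under 0.05 was reached by 6 of the 10 and by 2326 of all tested genes. The median log2 fold change of the 10 was -0.14, beside 0.002 for all tested genes, and 4 of the 10 were above 0. The genes were chosen with earlier results of these data known, so these counts describe them and test nothing about the set.

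**Figure D1:**
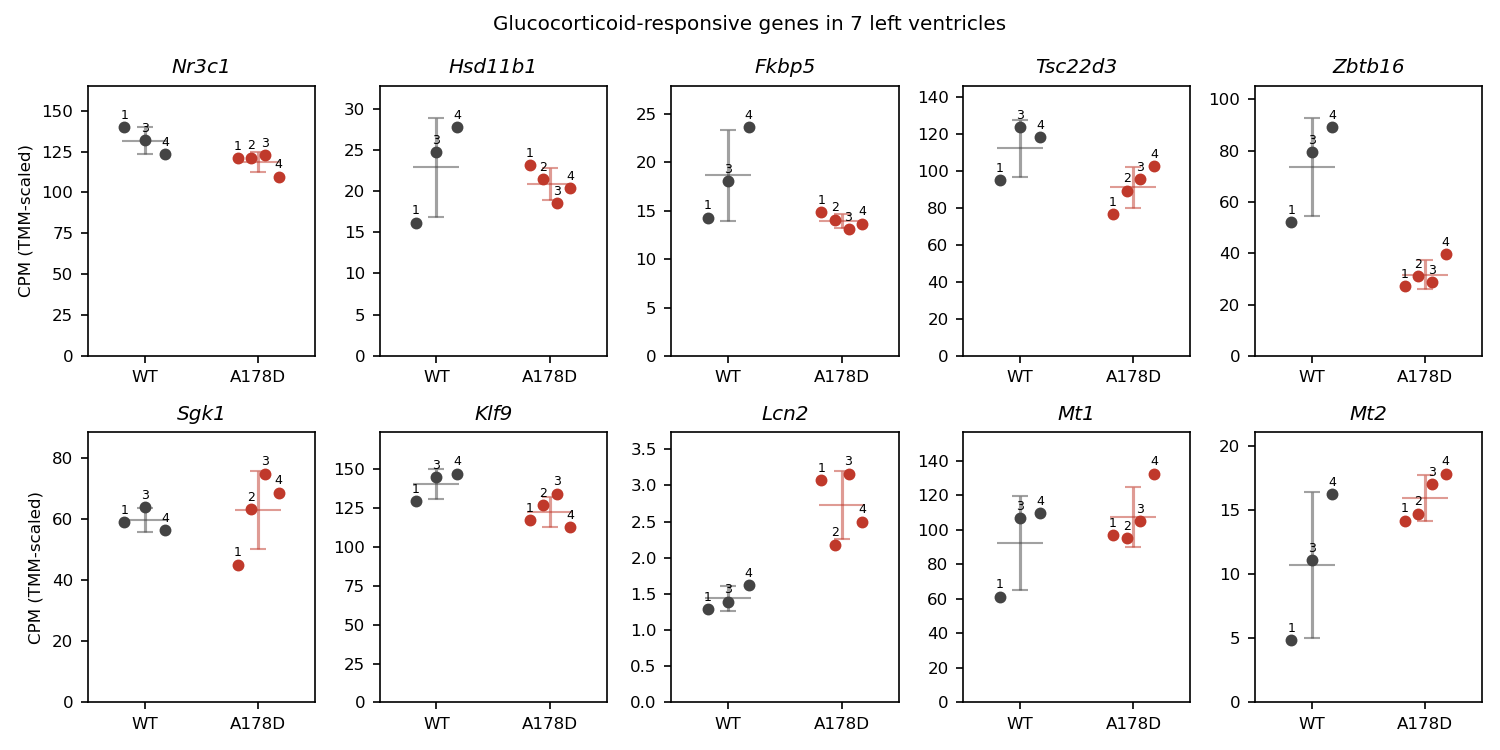
CPM of the 10 genes in each heart, with WT in grey and A178D in red, each point labelled with its replicate number; horizontal marks are group means and bars are 1 SD (3 WT and 4 A178D hearts), and each vertical axis starts at 0. The genotypes separate without overlap for Zbtb16, Lcn2 and, by a narrow margin, Nr3c1, and WT replicate 1 lies lowest for Hsd11b1, Lcn2, Mt1 and Mt2.

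Nr3c1 encodes the glucocorticoid receptor. Its level was 139.9, 131.9 and 123.4 CPM in WT replicates 1, 3 and 4, and 120.8, 121.3, 122.7 and 109.7 CPM in A178D replicates 1 to 4. All A178D hearts lay below all WT hearts, but the gap between the closest hearts, 123.4 against 122.7 CPM, was small. This log2 fold change of -0.15 ± 0.07 (SE) was not called (edgeR adjusted p = 0.304), and with offsets for transcript length and GC content it was -0.07.

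Hsd11b1 encodes the reductase that supplies active hormone within the tissue. It stood at 16.2, 24.7 and 27.7 CPM in the WT hearts and at 23.2, 21.4, 18.6 and 20.4 CPM in the A178D hearts. The WT hearts held both the lowest and the highest value and enclosed every A178D heart. Its log2 fold change of -0.13 ± 0.15 was within the spread between hearts (edgeR adjusted p = 0.712), and it was -0.32 without WT replicate 1, -0.07 without WT replicate 3, -0.08 without A178D replicate 3 and 0.03 without WT replicate 4.

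Fkbp5 encodes an immunophilin of the receptor complex that the receptor itself induces and that lowers hormone binding, a short feedback loop. WT hearts gave 14.3, 18.03 and 23.6 CPM, and A178D hearts 14.8, 14.1, 13.1 and 13.7 CPM. The A178D hearts were close together (SD 0.718 CPM, n = 4), whereas the WT hearts were spread out (SD 4.71 CPM, n = 3), and WT replicate 1 lay among the A178D hearts. A log2 fold change of -0.42 ± 0.14 resulted, which was not called (edgeR adjusted p = 0.143). Without WT replicate 1 it was -0.58 and was called (edgeR adjusted p = 0.0176), and without WT replicate 4 it was -0.22 (edgeR adjusted p = 0.457).

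Zbtb16, also known as PLZF, encodes a zinc-finger repressor that is a well-known glucocorticoid target in many cell types. The gene (ENSMUSG00000066687) lies at chr9:48654297-48836222 on the minus strand of GRCm38. Its values were 52.2, 79.4 and 89.1 CPM in WT replicates 1, 3 and 4 and 27.1, 31.2, 28.7 and 39.6 CPM in A178D replicates 1 to 4. Every A178D heart was below every WT heart, the nearest pair being A178D replicate 4 and WT replicate 1. The log2 fold change was -1.22 ± 0.16 (edgeR adjusted p = 0.00224), lower in 4 of 4 A178D hearts. It was called in each of the 7 fits that left out 1 heart, with log2 fold changes between -1.41 and -1.06 and edgeR adjusted p between 4.8e-05 and 0.0234. In bulk tissue, fewer cells that express a gene and less RNA per cell cannot be told apart. Between the genotypes, markers of smooth muscle and pericytes moved in the same direction. Of 7 such genes tested, 4 were called lower (Myh11, Acta2, Tagln and Cnn1) and 0 higher, beside 1.31% and 1.04% of all tested genes, and the hearts did not overlap in 5 of the 7, beside 16.1%. Their summed level was 755, 760.2 and 704 CPM in WT and 480.3, 553, 578 and 523 CPM in A178D hearts, with Acta2 the most abundant. Acta2 and Tagln were called in each of the 7 fits that left out 1 heart, Myh11 in 5 (not without WT replicate 3 or 4, edgeR adjusted p up to 0.0547; log2 fold changes between -0.75 and -0.55) and Cnn1 only in the fit without A178D replicate 4 (edgeR adjusted p up to 0.109 in the others; log2 fold changes between -0.96 and -0.63). Within genotypes the summed level and Zbtb16 did not order the hearts alike. WT replicate 4 had the most Zbtb16 but the lowest WT sum, whereas A178D replicate 1 was the lowest A178D heart for both. The part of these cells in the values of Zbtb16 was not tested.

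Tsc22d3 encodes GILZ, a leucine-zipper protein that carries much of the anti-inflammatory action of glucocorticoids. It was measured at 95.1, 123.9 and 118.6 CPM in WT and at 76.9, 89.5, 95.7 and 102.9 CPM in A178D hearts. WT replicate 1 fell inside the A178D range and the other WT hearts lay above it. Its log2 fold change of -0.30 ± 0.11 was not called (edgeR adjusted p = 0.168), but without WT replicate 1 it was -0.41 and passed (edgeR adjusted p = 0.0428). It was not called without any other single heart, and without WT replicate 3 it was -0.23 (edgeR adjusted p = 0.458).

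Klf9, a Krüppel-like factor induced by glucocorticoids and thyroid hormone, gave 129.4, 144.7 and 147.1 CPM in WT hearts and 117.2, 126.7, 134.3 and 112.8 CPM in A178D hearts. Only A178D replicate 3 was above the lowest WT heart. Its log2 fold change was -0.19 ± 0.08 and was not called (edgeR adjusted p = 0.232).

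Sgk1 encodes a kinase that regulates ion channels and is induced by glucocorticoids and mineralocorticoids. It was at 58.9, 63.9 and 56.3 CPM in WT hearts, and at 45.1, 63.2, 74.8 and 68.5 CPM in A178D hearts. The A178D hearts spread on both sides of the WT hearts, with A178D replicate 1 lowest and A178D replicate 3 highest of all. The log2 fold change was 0.08 ± 0.13 (edgeR adjusted p = 0.825), 0.21 without A178D replicate 1 and -0.02 without A178D replicate 3.

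Lcn2 encodes lipocalin-2, an iron-siderophore binding protein of neutrophil granules that many other cells also make in inflammation. The gene (ENSMUSG00000026822) lies at chr2:32384633-32388252 on the minus strand. It was scarce in every heart, at 1.29, 1.39 and 1.62 CPM in WT and 3.07, 2.18, 3.16 and 2.50 CPM in A178D. These values rest on 68, 76 and 66 counts in WT and 124, 115, 135 and 81 counts in A178D libraries. Small counts were mostly even in each library (odd share 17.6 to 20.3% of the counts from 1 to 20); should the 2 ends of a fragment have been counted separately, which the sources used here do not say, fewer fragments than counts stand behind these values. With all counts halved Lcn2 kept its call (log2 fold change 0.94, edgeR adjusted p = 0.0373). All A178D hearts were above all WT hearts. The log2 fold change was 0.93 ± 0.22 (edgeR adjusted p = 0.0437), higher in 4 of 4 A178D hearts.

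The Lcn2 call was close to the threshold. Over the 7 fits that left out 1 heart, the log2 fold change stayed between 0.85 and 1.03, but the call held in only 2, those without A178D replicate 2 or 4. The edgeR adjusted p was 0.0926, 0.175 and 0.098 without WT replicates 1, 3 and 4, and 0.137 and 0.11 without A178D replicates 1 and 3. It was also lost with limma-voom (adjusted p = 0.0599) and with offsets for transcript length and GC content (edgeR adjusted p = 0.0548). DESeq2 called it (adjusted p = 0.00679).

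Neutrophil and macrophage markers are given beside Lcn2 because those cells make it. Of 8 neutrophil markers, 3 could be tested and 0 were called by edgeR, DESeq2 (which gave an adjusted p to 2) or limma-voom, with 0 at an unadjusted p under 0.05. Their summed level was 1.96, 3.58 and 1.72 CPM in WT and 4.46, 3.34, 3.30 and 2.01 CPM in A178D hearts, so that the genotypes overlapped. Csf3r was the most abundant, Ly6g had 0 counts in every heart, and Retnlg, Mmp8, Camp and Ltf had at most 10 counts in any heart. The 6 macrophage markers, with Csf1r the most abundant, summed to 159, 208 and 178.3 CPM in WT and 208, 221, 196 and 211 CPM in A178D hearts. None of them was called by edgeR or limma-voom, where edgeR called 1.04% of all tested genes higher and 1.31% lower. DESeq2 called 1 of them, C1qb, higher, beside 290 of 13153 genes. Of the 6, 3 had an unadjusted p under 0.05, beside 2326 of all 13894 tested genes. All 6 leaned higher in A178D hearts (median 0.25 on the log2 scale), and 2 of them showed no overlap, beside 16.1% of all tested genes. The 3 tested neutrophil markers leaned the same way (median 0.35), but 0 were free of overlap. The part of these cells in the level of Lcn2 was not tested.

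Mt1 and Mt2 encode metallothioneins, small metal-binding proteins that are induced by zinc as well as by glucocorticoids. Mt1 was at 61.1, 106.7 and 109.4 CPM in WT and 96.9, 95.1, 105.1 and 132.4 CPM in A178D hearts. Mt2 was at 4.85, 11.1 and 16.3 CPM in WT and 14.2, 14.7, 17.0 and 17.9 CPM in A178D hearts. For both genes WT replicate 1 was the lowest heart, A178D replicate 4 was the highest, and the genotypes overlapped.

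Neither metallothionein was called. The log2 fold change of Mt1 was 0.22 ± 0.17 (edgeR adjusted p = 0.558), -0.01 without WT replicate 1 and 0.35 without WT replicate 4. That of Mt2 was 0.58 ± 0.27 (edgeR adjusted p = 0.297), 0.23 without WT replicate 1 and 1.00 without WT replicate 4 (edgeR adjusted p = 0.103). Mt2 overlaps the gene Gm45774 on the opposite strand in the annotation, and how the counting treated strand, or reads shared between related genes, is not given in the sources used here.

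Levels of different genes can be compared only per length, here as mean CPM per kilobase of the longest annotated transcript. On that scale the WT order from high to low was Mt1 (85.2), Tsc22d3 (39.1), Klf9 (31.3), Mt2 (21.0), Nr3c1 (20.5), Sgk1 (19.3), Zbtb16 (14.4), Hsd11b1 (11.6), Fkbp5 (4.83) and Lcn2 (1.05). In A178D hearts Zbtb16 stood at 6.19 CPM per kilobase, below Hsd11b1 at 10.6, and Lcn2 remained the scarcest at 1.99. The 3 neighbours Mt2, Nr3c1 and Sgk1 were too close in WT hearts to be ordered. The SD of Mt2 alone was 5.72 CPM around a mean of 10.7 CPM (n = 3). With that spread Mt2 could not be ordered against Klf9, Zbtb16 or Hsd11b1 either. The scale depends on the transcript chosen, here 1085 bases for Mt1 and 511 for Mt2.

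Whether the genes moved together was first read heart by heart. WT replicate 3 was above the mean of the 7 hearts for 8 of the 10 genes and WT replicate 4 for 7, but WT replicate 1 for only 2, Nr3c1 and Zbtb16. A178D replicates 1 and 2 were above the mean for 3 genes each and A178D replicates 3 and 4 for 5 each. The highest value of a gene was most often in WT replicate 4 (4 genes) and the lowest most often in WT replicate 1 (4 genes). No heart was high or low for all 10 genes. WT replicate 1 combined the highest Nr3c1 with the lowest Mt2, 1.39 log2 units under the mean of that gene.

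**Figure D2:**
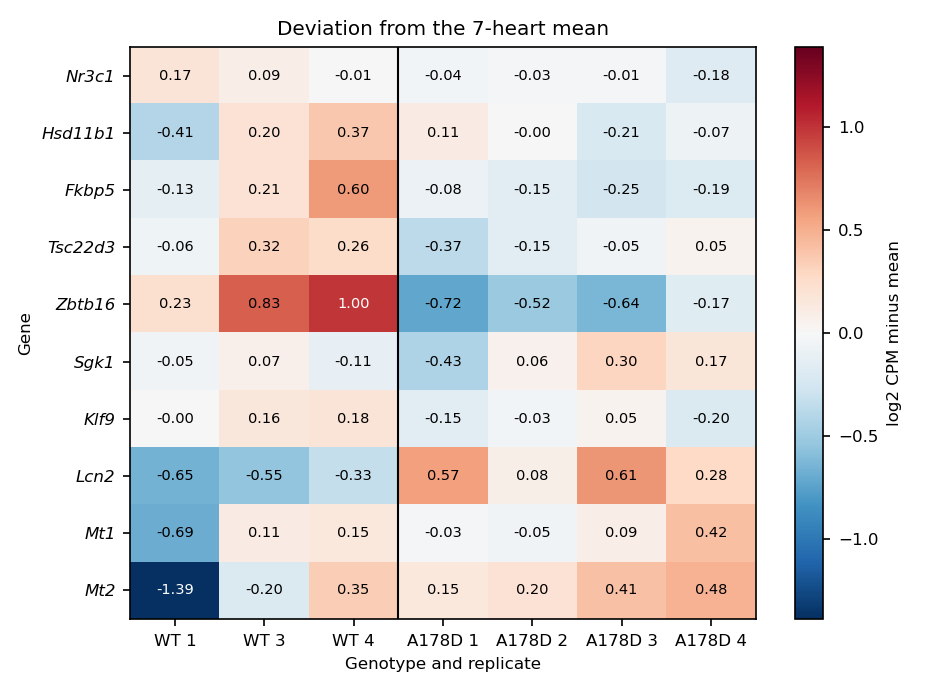
Deviation of each gene from its mean over 7 hearts, in log2 CPM, with hearts in columns (3 WT left of the line, 4 A178D right of it) and genes in rows; red is above and blue below the mean. Zbtb16 is above its mean in the WT hearts and below it in the A178D hearts, Lcn2 the reverse, and the column of WT replicate 1 is low for Hsd11b1, Lcn2, Mt1 and Mt2.

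Correlations of log2 CPM were computed for all 45 pairs of the 10 genes over the 7 hearts, each with an exact two-sided permutation p over 5040 pairings. Pearson's r was above 0 in 29 pairs, with a median of 0.172. An unadjusted exact p under 0.05 was reached by 8 pairs with Pearson's r and by 3 with Spearman's rho. After Benjamini-Hochberg adjustment over the 45 pairs 0 passed with either measure, the smallest adjusted exact p being 0.199 and 0.493. The members were thus not shown to move as 1 block across these hearts.

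Because the genotypes differ in level for some genes, r was computed again after subtracting each genotype's mean. It was then above 0 in 34 of the 45 pairs, with a median of 0.364, and 13 pairs had the opposite sign to the first r. Klf9 had r above 0 with all 9 other genes on this scale, and Tsc22d3, Zbtb16, Mt1 and Mt2 with 8 each. Nr3c1 stood apart, with r above 0 with only 1 of 9 and a median of -0.66. The count of 34 rested on WT replicate 1 more than on any other heart, in a computation that left out each heart in turn and was chosen after seeing the data. Without it within-genotype r was above 0 in 22 of the 45 pairs over 6 hearts, with a median of -0.04. For Nr3c1 it was then above 0 with 2 of 9 genes, with a median of -0.38, for Klf9, Tsc22d3 and Zbtb16 with 5 each, for Mt1 with 4 and for Mt2 with 7. Without any 1 of the other 6 hearts, 32 to 34 pairs were above 0, with medians from 0.276 to 0.465 for all pairs and from -0.83 to -0.36 for those of Nr3c1. With 3 and 4 hearts a group these values are descriptions.

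**Figure D3:**
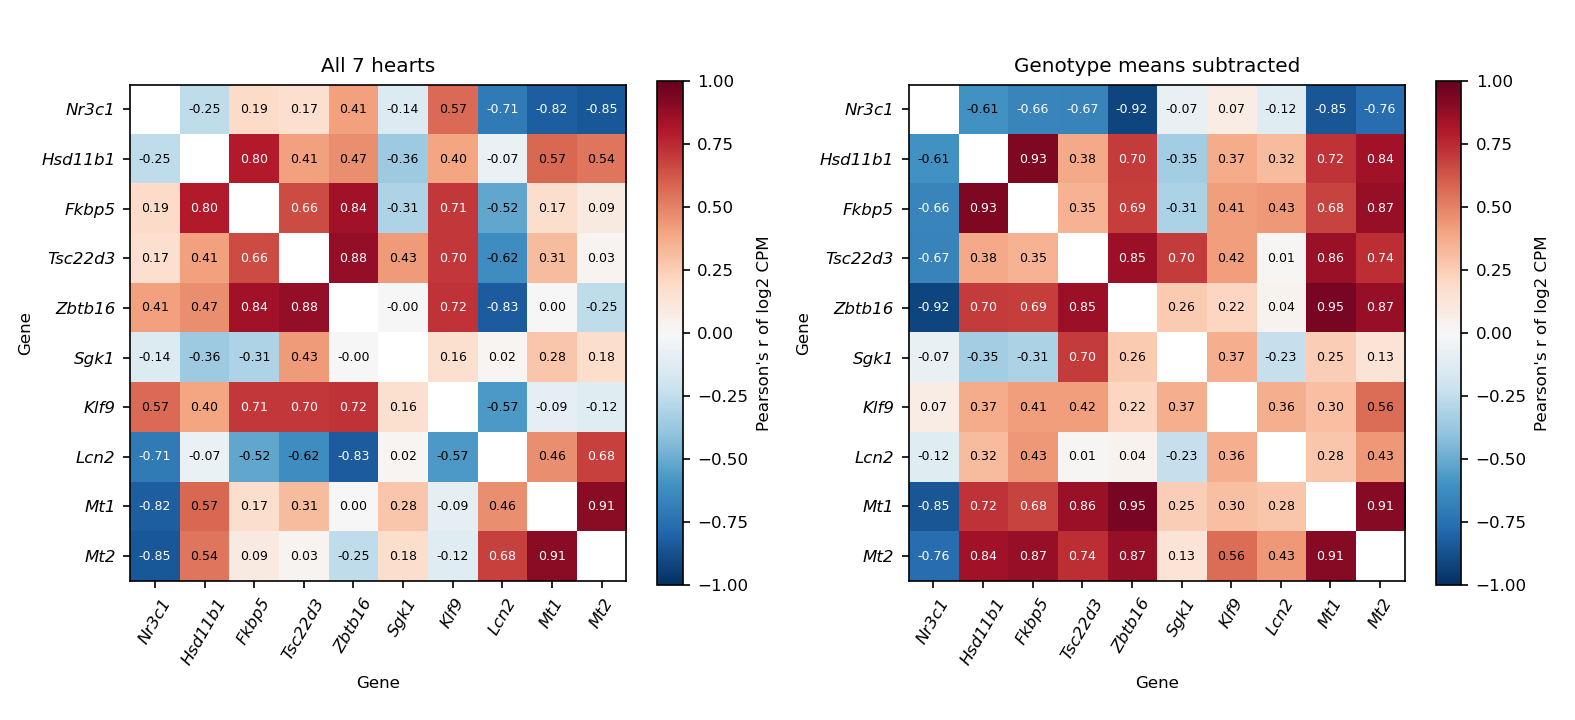
Pearson's r of log2 CPM for the 45 pairs of genes over 7 hearts, as measured (left) and with each genotype's mean subtracted (right), on a scale from -1 in blue to 1 in red. The pair of Mt1 and Mt2 is at 0.91 on both sides, the pair of Zbtb16 and Lcn2 goes from -0.83 to 0.04, and the Nr3c1 row is mostly below 0 on the right.

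The targets Tsc22d3 and Zbtb16 were among the most closely related pairs, with r = 0.88 (exact p = 0.0105, adjusted 0.199) and rho = 0.79 (exact p = 0.048, adjusted 0.493) over 7 hearts. Their r was 0.85 within genotypes (0.71 there without WT replicate 1) and 0.84 without the 2 hearts farthest from the Tsc22d3 median, WT replicate 3 and A178D replicate 1. Hsd11b1 and Fkbp5 behaved alike in this respect, with r = 0.80 (exact permutation p = 0.0244, adjusted 0.22), rho = 0.79 (exact p = 0.048, adjusted 0.493), 0.93 within genotypes (0.79 there without WT replicate 1) and 0.90 without WT replicates 1 and 4. Neither pair passed the adjustment.

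Other pairs rested on a few hearts. With genotype means kept, Mt1 and Mt2 had the largest r, 0.91 (exact p = 0.0232, adjusted 0.22), with rho = 0.68 (exact p = 0.109, adjusted 0.493). It was 0.91 within genotypes (0.55 there without WT replicate 1), but 0.44 without WT replicate 1 and 0.02 without WT replicate 1 and A178D replicate 4. Fkbp5 and Zbtb16 had r = 0.84 (exact p = 0.0133, adjusted 0.199) and rho = 0.61 (exact p = 0.167, adjusted 0.536), with 0.69 within genotypes (0.11 there without WT replicate 1), and r was 0.77 to 0.89 with 1 heart left out and 0.05 without WT replicates 3 and 4. Lcn2 and Mt2 had r = 0.68 (exact p = 0.0383, adjusted 0.231) and rho = 0.68 (exact p = 0.109, adjusted 0.493), with 0.43 within genotypes (0.30 there without WT replicate 1), and r was -0.07 without WT replicates 1 and 3.

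Some pairs ran in opposite directions. Nr3c1 and Mt2 had r = -0.85 (exact p = 0.00456, adjusted 0.199) and rho = -0.68 (exact p = 0.109, adjusted 0.493), with -0.76 within genotypes and -0.78 without WT replicate 1 and A178D replicate 4. Nr3c1 and Mt1 had r = -0.82 (exact p = 0.0411, adjusted 0.231) and rho = -0.36 (exact p = 0.444, adjusted 0.667), with -0.85 within genotypes (-0.84 there without WT replicate 1), but r was -0.60 without WT replicate 1, 0.57 without the same 2 hearts and -0.34 once trends with GC content and transcript length were removed from each library. Zbtb16 and Lcn2, the genes that passed the test in opposite directions, had r = -0.83 (exact p = 0.0311, adjusted 0.231) and rho = -0.79 (exact p = 0.048, adjusted 0.493). Without WT replicates 3 and 4 their r was -0.89. Within genotypes it was 0.04, and there -0.42 without WT replicate 1 and -0.27 without WT replicate 4. Within genotypes 2 pairs that had not stood out before were among the 3 farthest from 0, Zbtb16 and Mt1 at 0.95 (0.86 there without WT replicate 1, and 0.0009 with the genotype means kept) and Nr3c1 and Zbtb16 at -0.92 (-0.92 there without WT replicate 1, and 0.41 with the genotype means kept).

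To see which genes followed Fkbp5 most closely, the 12211 other tested genes that averaged 50 counts or more were ranked by r with Fkbp5 after subtracting genotype means. The median r was 0.012 over all of them and 0.435 over the other 9 members. Without WT replicate 1 these medians were 0.001 and -0.13, so that the contrast was not seen without that heart. With all 7 hearts Hsd11b1 ranked 54, Mt2 165, Zbtb16 946, Mt1 1019, Lcn2 2642, Klf9 2800, Tsc22d3 3294, Sgk1 8860 and Nr3c1 11078. Without WT replicate 1, r with Fkbp5 within genotypes was 0.79 for Hsd11b1 and 0.54 for Mt2, but 0.27 for Lcn2, 0.11 for Zbtb16, -0.13 for Mt1, -0.14 for Klf9, -0.48 for Tsc22d3, -0.60 for Sgk1 and -0.38 for Nr3c1. The 5 genes at the top were Tom1l1 (0.99), Palb2 (0.99), Agt (0.98), Anxa4 (0.98) and Nampt (0.98). These values describe 7 hearts and carry no test, and since Fkbp5 varied mainly among the WT hearts they rest mostly on those 3.

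Nampt, the rate-limiting enzyme of NAD salvage, was the only one of these 5 that edgeR called. It was at 351.6, 392.3 and 503 CPM in WT and 271.4, 267.6, 254.2 and 254.6 CPM in A178D hearts, with no overlap. Its log2 fold change was -0.67 (edgeR adjusted p = 0.00564). Agt, which encodes angiotensinogen, was at 1.48, 2.09 and 3.81 CPM in WT and 4.93, 4.65, 3.56 and 4.05 CPM in A178D hearts, with a log2 fold change of 0.82 (edgeR adjusted p = 0.133; DESeq2 adjusted p = 0.0486). Without WT replicate 4 it was 1.264 and was called (edgeR adjusted p = 0.0402), and without WT replicate 1 it was 0.56.

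Further genes that glucocorticoids induce were taken from a list of 28, all of them tested. EdgeR called 1 higher and 2 lower, 13 had an unadjusted p under 0.05, 6 were above 0 and the median log2 fold change was -0.25. Among all tested genes 1.04% were called higher, 1.31% lower and 2326 of 13894 had an unadjusted p under 0.05. The hearts did not overlap in 2 of the 28, beside 16.1% of all tested genes. Foxo3, a forkhead factor of the atrophy and insulin pathways, fell from 46.8, 52.8 and 54.8 CPM in WT to 36.4, 41.5, 37.1 and 30.1 CPM in A178D hearts, without overlap (log2 fold change -0.50 ± 0.10, edgeR adjusted p = 0.0205). Fam107a, an actin-binding stress gene, was at 2.93, 6.27 and 7.31 CPM in WT and 2.30, 1.99, 3.26 and 2.35 CPM in A178D hearts. WT replicate 1 was again within the A178D range, and the log2 fold change was -1.15 ± 0.27 (edgeR adjusted p = 0.0411).

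Cdkn1a, the cell-cycle inhibitor p21, rose from 10.98, 9.39 and 9.47 CPM in WT to 15.0, 14.4, 14.2 and 14.2 CPM in A178D hearts. The A178D hearts were tightly grouped above the WT hearts (log2 fold change 0.54 ± 0.10, edgeR adjusted p = 0.0146). These calls were not kept in all fits that left out 1 heart, although the log2 fold changes stayed between 0.50 and 0.62 for Cdkn1a, -0.57 and -0.42 for Foxo3 and -1.45 and -0.90 for Fam107a. Fam107a was called in 2 of the 7 fits that left out 1 heart (those without WT replicate 1 or A178D replicate 3), Foxo3 in 3 (those without WT replicate 1, A178D replicate 2 or A178D replicate 4) and Cdkn1a in 4 (those without WT replicate 1 or A178D replicates 2, 3 or 4), with edgeR adjusted p up to 0.203, 0.115 and 0.0951 in the others. Fam107a was also lost with limma-voom (adjusted p = 0.103), which called Angptl4 higher instead (log2 fold change 1.21 ± 0.42, edgeR adjusted p = 0.162). Klf15, chosen here after its values were seen because DESeq2 called it, was at 65.7, 100.9 and 92.0 CPM in WT and 56.7, 59.4, 59.5 and 69.8 CPM in A178D hearts (log2 fold change -0.49 ± 0.12, edgeR adjusted p = 0.0516).

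The receptor's chaperones and cofactors and the steroid-handling genes formed a list of 20, of which 18 were tested; Hsd11b2 had at most 6 counts in any heart and Serpina6 had 0. EdgeR and limma-voom called 0 of the 18, DESeq2 called 1 higher and 1 lower, and 9 had an unadjusted p under 0.05. Among all tested genes 2326 of 13894 had an unadjusted p under 0.05, and DESeq2 called 290 higher and 375 lower of 13153. The hearts did not overlap in 11 of the 18, beside 16.1% of all tested genes, and the median log2 fold change was -0.11. The smallest p belonged to Abcb1a, a steroid-exporting transporter, at 37.9, 39.8 and 35.8 CPM in WT and 32.9, 28.1, 32.4 and 29.7 CPM in A178D hearts (log2 fold change -0.30 ± 0.08, edgeR adjusted p = 0.0831; DESeq2 adjusted p = 0.0303). Next was Hsp90aa1, the inducible Hsp90, at 89.9, 71.1 and 76.0 CPM in WT and 128.9, 87.7, 97.4 and 102.1 CPM in A178D hearts. Its log2 fold change of 0.40 ± 0.12 had an edgeR adjusted p of 0.103 and was called by DESeq2 (adjusted p = 0.0262). Without WT replicate 1 it was 0.50 and edgeR called it (adjusted p = 0.0427). Without any other single heart edgeR did not call it, with log2 fold changes down to 0.28 and adjusted p up to 0.342.

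The metal-response list, which holds the zinc sensor Mtf1, the metallothionein gene Mt3 and zinc transporters, had 7 genes tested and 0 called by edgeR, DESeq2 or limma-voom over the 7 hearts. An unadjusted p under 0.05 was reached by 3 of them, beside 2326 of all 13894 tested genes. The hearts did not overlap in 1 of the 7, beside 16.1% of all tested genes, and the median log2 fold change was -0.11. Mt3 had the largest log2 fold change of the list, -0.95 ± 0.41 (edgeR adjusted p = 0.263), opposite in direction to Mt1 and Mt2. It rests on 12 to 42 counts a library. Slc39a14, a zinc importer, was at 78.5, 92.4 and 98.9 CPM in WT and 75.9, 72.8, 80.9 and 70.6 CPM in A178D hearts (log2 fold change -0.26 ± 0.09, edgeR adjusted p = 0.136). Its log2 fold change was -0.35 without WT replicate 1 and was called (edgeR adjusted p = 0.0332). Without any other single heart it was not called, with edgeR adjusted p up to 0.393. Slc39a1, another importer, was at 73.7, 73.3 and 75.9 CPM in WT and 85.5, 87.4, 82.8 and 79.9 CPM in A178D hearts (log2 fold change 0.18 ± 0.07, edgeR adjusted p = 0.2).

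Acute-phase and cytokine genes, a class to which Lcn2 itself belongs, numbered 15, of which 12 were tested. EdgeR and limma-voom called 1 higher and 0 lower, where edgeR called 1.04% and 1.31% of all tested genes. An unadjusted p under 0.05 was reached by 3, beside 2326 of all 13894 tested genes. The hearts did not overlap in 3 of the 12, beside 16.1% of all tested genes, and the median log2 fold change was -0.05. DESeq2 called 2 higher and 1 lower, adding Serpina3n (0.50, edgeR adjusted p = 0.05004) and Steap4 (-0.30, edgeR adjusted p = 0.0732). Its calls over all genes were 290 higher and 375 lower of 13153. The gene that all 3 tools called was Timp1, an inhibitor of matrix metalloproteases, which rose from 1.48, 0.935 and 1.13 CPM in WT to 2.25, 3.68, 3.04 and 3.09 CPM in A178D hearts (log2 fold change 1.35 ± 0.24, edgeR adjusted p = 0.013). Every A178D heart was above every WT heart, and the call was lost without WT replicate 3 or 4 (edgeR adjusted p up to 0.0849), with log2 fold changes between 1.20 and 1.56 over the 7 fits that left out 1 heart. Saa3, Il6 and Orm1 had too few counts to be tested, with at most 18 in any heart.

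Immediate early genes, which respond within minutes to stress and handling, were 11 in number. EdgeR, DESeq2 and limma-voom called 0 of them, and the median log2 fold change was 0.15. The hearts did not overlap in 0 of the 11, beside 16.1% of all tested genes. An unadjusted p under 0.05 was reached by 1 gene of the list, beside 2326 of all 13894 tested genes. That gene was Ier3, at 44.6, 50.4 and 57.7 CPM in WT and 29.3, 34.0, 42.5 and 52.2 CPM in A178D hearts (log2 fold change -0.37 ± 0.15, edgeR adjusted p = 0.252), called only without A178D replicate 4 (-0.53, edgeR adjusted p = 0.0436). Junb was next, at 19.0, 12.1 and 12.5 CPM in WT and 13.8, 17.8, 17.9 and 19.6 CPM in A178D hearts (log2 fold change 0.25 ± 0.16, edgeR adjusted p = 0.469). Its log2 fold change was 0.49 without WT replicate 1 (edgeR adjusted p = 0.0694), 0.13 without WT replicate 3 and 0.15 without WT replicate 4. Ier3 and Junb both overlapped between the genotypes.

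Clock genes were included because corticosterone follows the daily cycle. Of 14 tested, 1 was called higher and 5 lower by edgeR and limma-voom, DESeq2 also called Nr1d2 lower, 9 had an unadjusted p under 0.05 and the median log2 fold change was -0.13. Over all tested genes edgeR called 1.04% higher and 1.31% lower, and 2326 of 13894 had an unadjusted p under 0.05. DESeq2 called 290 higher and 375 lower of 13153 genes. The hearts did not overlap in 8 of the 14, beside 16.1% of all tested genes. Arntl, which encodes the activator Bmal1, rose from 2.44, 1.10 and 1.33 CPM in WT to 8.70, 5.24, 4.15 and 4.14 CPM in A178D hearts (log2 fold change 1.77 ± 0.31, edgeR adjusted p = 0.0115). Per2, a repressor of the clock that glucocorticoids also induce, fell from 43.3, 61.3 and 61.1 CPM to 24.0, 27.9, 33.5 and 34.99 CPM (log2 fold change -0.88 ± 0.14, edgeR adjusted p = 0.0062). Neither overlapped between genotypes.

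Per3, Cry1, Tef and Hlf also fell, by 0.47, 0.51, 0.39 and 0.42 on the log2 scale (edgeR adjusted p = 0.0172, 0.0328, 0.016 and 0.0306), with no overlap for any of them. Without WT replicate 3 none of the 6 clock genes was called, and without WT replicate 4 only Per2 was. The log2 fold changes stayed close without WT replicate 3 (Arntl 1.54, Per2 -0.79, Per3 -0.47, Cry1 -0.43, Tef -0.39 and Hlf -0.43), and of all tested genes only 22 were called higher and 31 lower in that fit, against 145 and 182 with all 7 hearts. Per3, Tef and Hlf were also lost without A178D replicate 1, and Cry1 without A178D replicate 1 or 3. The edgeR adjusted p was up to 0.112 in these fits and up to 0.187 without WT replicate 3. The part of the clock in the values of the 10 genes was not tested.

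The remaining cell type markers had no gene called by edgeR or limma-voom. Those with an unadjusted p under 0.05 were 1 of 8 for cardiomyocytes, 1 of 1 tested for atrial myocytes, 3 of 6 for fibroblasts, 0 of 5 for endothelium, 0 of 6 for lymphocytes, 0 of 4 tested for adipocytes, 0 of 1 tested for the epicardial layer and 0 of 4 for erythrocytes. DESeq2 called Col1a1, a fibroblast marker, higher and no other of those it gave an adjusted p, which were 3 of the 6 lymphocyte and 1 of the 4 adipocyte markers and all tested ones of the other lists. The median log2 fold changes were -0.02 for cardiomyocytes, 0.65 for the single atrial gene, 0.12 for fibroblasts, 0.08 for endothelium, 0.24 for lymphocytes, 0.08 for adipocytes, -0.29 for the single epicardial gene and 0.15 for erythrocytes. Smooth muscle and pericyte markers had a median of -0.59, with 6 of 7 at an unadjusted p under 0.05, and DESeq2 called 6 of the 7 lower. Among all tested genes 2326 of 13894 had an unadjusted p under 0.05, and DESeq2 called 290 higher and 375 lower of 13153.

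Promoters were read to see which of the genes carry the letters that the receptor or the metal sensor can bind. RefSeq windows of 300 bases around the gene start (build GRCm38.p6) were read for 8 of the 10 genes (those of Nr3c1 and Zbtb16 were not analysed here), with 15 windows in all, 6 of them for Sgk1 and 3 for Tsc22d3. The glucocorticoid half-site AGAACA, on either strand, was in 19.0% of the 32851 windows of all genes. It was in 4 of the 15 windows, 3 of Sgk1 and 1 of Tsc22d3. A half-site and its inverse, TGTTCT, with 3 bases between them, were found in 3 windows of all genes, 1 of which belongs to Sgk1. A match is a description of letters and not a bound site, and distant sites were not searched.

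The Sgk1 window with the inverted pair is printed because of that rarity. It lies at chr10:21993640-21993939 on the plus strand, inside the annotated span of the gene, and reads 5′ to 3′ with half-sites in capitals.
Sgk1: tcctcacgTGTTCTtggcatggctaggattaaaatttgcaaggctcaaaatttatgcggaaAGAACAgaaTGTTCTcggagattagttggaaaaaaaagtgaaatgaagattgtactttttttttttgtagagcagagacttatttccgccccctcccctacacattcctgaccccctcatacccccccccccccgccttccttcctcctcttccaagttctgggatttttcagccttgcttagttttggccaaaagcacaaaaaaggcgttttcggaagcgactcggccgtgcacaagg

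The metal response element core, written TGCGCNC or TGCACNC and searched on both strands, was in 25.7% of the windows of all genes and in 4 of the 15 windows, 1 each of Mt1, Mt2, Hsd11b1 and Sgk1. The windows of Mt1 and Mt2 are printed because these neighbours on chromosome 8 had the largest r of the 45 pairs over all 7 hearts, with genotype means kept. Mt1 held 3 matches and Mt2 held 4. The Mt1 window lies at chr8:94178839-94179138 and the Mt2 window at chr8:94172368-94172667, both on the plus strand, and the matches are in capitals, 5′ to 3′.
Mt1: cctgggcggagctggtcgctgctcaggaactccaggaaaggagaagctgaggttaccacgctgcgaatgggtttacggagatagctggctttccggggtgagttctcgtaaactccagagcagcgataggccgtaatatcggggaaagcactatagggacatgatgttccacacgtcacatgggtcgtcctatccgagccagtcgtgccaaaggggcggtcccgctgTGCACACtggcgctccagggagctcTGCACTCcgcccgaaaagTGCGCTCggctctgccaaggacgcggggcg
Mt2: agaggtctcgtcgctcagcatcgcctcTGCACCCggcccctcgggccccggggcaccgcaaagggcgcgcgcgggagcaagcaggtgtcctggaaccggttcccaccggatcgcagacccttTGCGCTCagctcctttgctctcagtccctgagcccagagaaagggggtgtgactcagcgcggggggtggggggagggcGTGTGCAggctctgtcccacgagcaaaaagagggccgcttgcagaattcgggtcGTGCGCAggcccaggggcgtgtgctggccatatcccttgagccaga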

How the data were processed

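Stranded poly(A) RNA sequencing was done on the left ventricle of 3 WT mice and 4 mice homozygous for A178D, with 1 library per heart. The authors deposited raw counts per gene, without normalization. The submitters' processing notes name bcl2fastq 2.18.0.12, HISAT2 2.1.0, SAMtools 1.6, DESeq2 1.26.0 and the genome build GRCm38; the counting program and annotation release are not given in the sources used here. A second deposited table, of counts divided by size factors, was not used. Genotypes were taken from the labels, since counts per gene do not show the allele.

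Of 21257 entries, 300 had no symbol in GENCODE M21. Entries with at least 30 counts that were identical in every library were reduced to 1 each, as were repeated identifiers with the same counts, which left 20927 genes. Odd numbers made up only 17.6 to 20.3% of the counts from 1 to 20 in a library, so halved counts were tried as an alternative.

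A178D was compared with WT in edgeR 4.0.16 (R 4.3.3, TMM, glmQLFit and glmQLFTest, no covariate) over genes that reached 10 counts in 3 or more libraries, with p adjusted over all of them. SE belongs to this model's log2 fold change. Log2 CPM used a prior count of 2. The alternatives were DESeq2 1.42.0, its size factors in edgeR, limma-voom (limma 3.58.1), other filters, a replicate block, adjusted p under 0.01, the table as deposited, halved counts, offsets for transcript length and GC content (mgcv 1.9.3), and leaving out each heart. The steps were tested on simulated data.

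Named genes were the 10 members, every called gene of 6 further lists or otherwise the 2 with the smallest p in a list, and the 5 genes most like Fkbp5; 11 lists of cell type markers were also read. The members and lists were chosen with earlier results of these data known. Promoter sequences are from RefSeq (GRCm38.p6). One computation was added after seeing the data: within-genotype r between the 10 genes was computed again without each heart in turn, as were the medians for genes like Fkbp5.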

Additional observations from a re-analysis of the deposited data

Results flagged for a closer look

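The level of Nr3c1 in A178D replicate 4, 109.7 CPM, was far from the other A178D hearts, which lay between 120.8 and 122.7 CPM. Its gap to the nearest heart was 0.853 of the range of the group. The 4 A178D values of 31 named genes were screened in this way and 1 was picked out, where chance picks out about 1 group in 20. A178D replicate 4 had the smallest library, and the low value was not peculiar to Nr3c1: in the lists read here that heart was also well below the other A178D hearts for Nr3c2 (17.1 against 25.7 to 26.5 CPM), Ncoa2 (58.7 against 76.6 to 81.9 CPM), Ncor1 (160.7 against 202.9 to 206 CPM) and Ryr2 (1520 against 2126 to 2203 CPM). The same heart was well above the other A178D hearts for Tnnt2 (11690 against 9443 to 9774 CPM) and Tnni3 (6779 against 5481 to 5709 CPM). So it was for Myl3 (7640 against 6157 to 6287 CPM) and Fabp4 (681.5 against 514.9 to 570.4 CPM), so that it was not low throughout. All of these genes were picked after their values were seen. With offsets for transcript length and GC content the log2 fold change of Nr3c1 between the genotypes went from -0.15 to -0.07; the cause of the low value was not tested.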

How the results depend on the processing

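Zbtb16 kept its direction and its call under all 17 alternatives. Lcn2 kept its direction in all of them, but its call was lost with limma-voom (0.91), the replicate block (1.02), offsets for length and GC content (0.84) and adjusted p under 0.01 (0.93), and its log2 fold change was 0.85 to 1.03 with 1 heart left out. With 1 heart left out, Hsd11b1 ranged from -0.32 to 0.0321, Fkbp5 from -0.58 to -0.22, Tsc22d3 from -0.41 to -0.23, Sgk1 from -0.0187 to 0.21, Mt1 from -0.0071 to 0.35, Mt2 from 0.23 to 1.00, Tom1l1 from -0.0416 to 0.162 and Anxa4 from -0.0618 to 0.096, and with the offsets Anxa4 was -0.0154, Nr3c1 -0.07 (-0.15) and Mt1 0.11 (0.22). Genes called higher (145) and lower (182) were 290 and 375 with DESeq2 and 24 and 40 at adjusted p under 0.01, 284 were lower with the offsets, and with 1 heart left out they were 22 to 215 and 31 to 238. In the further lists, 3 genes were called higher and 7 lower; these were 5 and 11 with DESeq2, 5 higher without a filter on low counts, with the replicate block and with the offsets, 0 and 1 at adjusted p under 0.01, and 0 to 5 and 0 to 15 with 1 heart left out. Pairs with an unadjusted permutation p under 0.05 (8) were 3 to 6 with 1 heart left out, 9 with trends in length and GC content removed and 12 with genotype means subtracted. The 12 tests nothing, because hearts were permuted freely between genotypes after the means were subtracted, which makes p too small. For Zbtb16 and Lcn2, r was 0.0381 with genotype means subtracted. Pairs with within-genotype r above 0 went from 34 to 22 without WT replicate 1 and were 32 to 34 without any 1 of the other 6 hearts, alternatives chosen after seeing the data. The replicate block called 124 genes higher and 147 lower, Hsp90aa1 (0.47) among them. Whether the replicate numbers pair the samples is not given in the labels. Deviations from the genotype means of hearts with the same number had correlations of 0.003, -0.04 and -0.042 across genes, and no heart was most like the heart of its own number. This cannot settle the pairing, since even the best match between genotypes reached only 0.066. Where fewer hearts were used the test has less power; other causes were not tested. Lcn2 rests on 66 to 135 counts a library; it kept its call with halved counts and lost it in 5 of 7 fits with 1 heart left out.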
